A study of Homo sapiens with 24 samples.

Results

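The genotype by day interaction asks whether gene counts changed between day 0 and day 14 by a different amount in BRAT1 knockout (KO) lines than in control lines. It is the change in KO lines minus the change in control lines on the log2 scale, so a negative value marks a feature that ended lower in KO lines at day 14 relative to day 0 than it did in controls. All 24 of the 24 libraries of the study entered it. The H7 line, a human embryonic stem cell line, was used as 2 control lines and 2 BRAT1 KO lines, and each line was sampled with 3 biological replicates (A to C) at each day. Day 0 libraries came from stem cells, and day 14 libraries from cells differentiated to neural progenitors with ventral patterning. The 4 groups, each of 6 libraries, were control at day 0, KO at day 0, control at day 14 and KO at day 14. Lines are numbered 1 and 2 within a genotype, so each genotype rests on 2 lines. The 3 libraries of a line entered the tests as independent, and the p-values measure the spread between these libraries. Of 61248 annotated features, 10971 had enough counts to be tested. Of these, 6829 had at least 10 counts in at least 3 libraries at each day and are called measured at both days. The other 4142 missed that minimum at day 0 (3911 features) or at day 14 (231 features) and are called near zero at one day. They are described apart, because a difference between log ratios is then set by the day with few counts.

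BRAT1 is a nuclear and cytoplasmic protein known to bind ATM and BRCA1 in the DNA damage response, and to associate with the catalytic subunits of the Integrator complex. Integrator cleaves nascent transcripts, forms the ends of small nuclear RNAs and ends transcription early at many genes, among them genes that respond quickly to signals. Differentiation of stem cells to neural progenitors normally switches off the pluripotency network and the epithelial programme of the stem cell colony, lowers FGF and ERK signalling, and switches on neural and regional transcription factors.

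Libraries held between 1407832 and 2143871 counts at day 0 and between 2228736 and 3726227 at day 14. Values are given as CPM, counts relative to the size of the library after scaling by the trimmed mean of M-values. The spread was unequal between days, with a common biological coefficient of variation of 1.11 at day 0 and 0.383 at day 14. The fit of all 24 libraries shares 1 spread per feature between the days, so each feature below is also given where useful by limma voom with a weight for each group. The 4 day 0 libraries of replicate letter A, 1 from each line, stand apart from the rest of day 0. Mitochondrial genes took 15.3 to 18.8% of their counts and the 10 most abundant features 28.3 to 32.6%, against 4.19 to 7.32% and 22.9 to 25.5% in the 8 libraries of letters B and C. At day 14 letter A was not apart, with 9.7 to 13.6% mitochondrial counts against 9.83 to 15.1%. The fits chosen for this after seeing the data, 1 with letter A at day 0 as a covariate and 1 without those 4 libraries, are given beside the counts below. Click-Seq keeps the strand of the RNA, and many features carried counts that match the gene on the opposite strand. TDGF1, a pluripotency gene, had 5.51 CPM in day 0 controls under its own name, and LRRC2, whose exons overlap it on the other strand, had 644 CPM. Reads of a feature and of the gene opposite it cannot be told apart here, so the opposite gene is named beside each feature. Counts under a gene's own name need not be reads of that gene, and this holds for every own-name value and sum below. A list with no call under own names therefore does not show that its genes changed alike in both genotypes. In 473 pairs of an antisense feature and the coding gene opposite it, counts under the coding name were 2.61 ± 0.257% (SD, n = 6) of those under the antisense name in controls and 3.77 ± 0.769% (SD, n = 6) in KO lines at day 14 (exact two-sided permutation p = 0.00649). At day 0 the values were 1.08 ± 0.148% and 1.1 ± 0.103% (SD, n = 6 each, exact two-sided permutation p = 0.742). Its difference between the days was not tested.

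The labelled cell types were checked on markers. In controls the stem cell gene POU5F1 went from 44.2 CPM at day 0 to 2.21 CPM at day 14, and in KO lines from 45.2 to 3.85 CPM. NANOG, DNMT3B, TDGF1, ZFP42, L1TD1 and ESRG were also lower at day 14 in controls. Other stem cell markers were higher there: LIN28A (13.6 to 52.5 CPM), LIN28B (3.72 to 10.5 CPM) and DPPA4 (3.52 to 9.15 CPM). SOX2 was about level (7.8 and 8.76 CPM). In KO lines LIN28A went from 15.3 to 47.4 CPM. The ventral factor NKX2-2, read through NKX2-2-AS1 on the other strand, was at 0 CPM in both day 0 groups and at 593 and 1301 CPM at day 14 in control and KO lines. Under own names, controls rose in PAX6 (8.74 to 72.1 CPM), NES (47.2 to 92.3 CPM) and HES5 (0 to 17.8 CPM). Several others were low in day 14 controls: NKX2-1 0.585, SHH 0.459, OLIG2 1.99, NKX6-1 1.38, SOX1 3.18 and FABP7 1.29 CPM. At day 14 all KO libraries exceeded all controls in NKX2-1, SHH, SIX3 and HES5 (KO means 21, 11.5, 70.3 and 61.5 CPM). PAX6, SOX1, FABP7, OLIG2 and NKX6-1 overlapped. SOX17, an endoderm gene, and KRT5, an epidermal gene, were at 0 in every group. Of the other markers of non-neural ectoderm, TP63 had a mean of 0.62 CPM in day 14 controls and 4.35 CPM in day 14 KO lines, where every KO library lay above every control library, and GATA3 had 0.182 and 4.41 CPM, with overlap. The 15 genes of that list summed to 53.9 to 84.7 CPM in day 14 controls and 21.4 to 63.4 CPM in KO lines, most of it KRT8 in controls. The 13 glial genes summed to 70.8 to 89.4 CPM in day 14 controls and 113 to 141.9 CPM in day 14 KO lines, which do not overlap, after 4.51 to 71.9 and 24.4 to 115.8 CPM at day 0. Of 4 glial genes tested under their own names 0 were called, and the part of such cells in the results was not tested. Counts under coding names relative to antisense names were also higher in day 14 KO lines, as given above. The part of that difference in these own-name sums was not tested. In bulk RNA fewer cells of a type and less RNA per cell cannot be told apart, and this holds for every value below.

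Counts under the name BRAT1 (chr7:2537877-2555727, GRCh38) were near zero at day 0 in both genotypes, and so could be compared between genotypes at day 14 alone. Control libraries had 0, 0 and 4.23 CPM at day 0 (lowest, median and highest of 6 libraries) and 166, 219.9 and 258 CPM at day 14. KO libraries had 0, 0 and 7.64 CPM at day 0 and 6.66, 38.9 and 68.7 CPM at day 14. At day 14 every KO library lay below every control library, and KO line 1 (6.66 to 13.2 CPM) lay below KO line 2 (64.6 to 68.7 CPM). The interaction was -3.55 (SE 1.25, adjusted p = 0.151) and was not called. At day 0 control libraries held 0 to 6 BRAT1 counts and KO libraries 0 to 10, so the day 0 labels cannot be checked on this gene. No gene overlaps BRAT1 on the other strand in the annotation.

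The interaction was called for 161 features at an adjusted p under 0.05 (edgeR's quasi-likelihood test, Benjamini-Hochberg adjusted over all features tested), which is 1.47% of 10971. Of these, 62 were higher (0.565%) and 99 lower (0.902%) in KO lines than the control change would give. Among features measured at both days 98 were called (1.44%), 21 higher and 77 lower. Among features near zero at one day 63 were called (1.52%), 41 higher and 22 lower. The sign was the same in all 4 pairings of a KO line with a control line for 96 of the 98 and for 62 of the 63. These pairings reuse the libraries that gave the calls, so a like sign is largely set by the call and does not replicate it. With lines as 8 groups, the change with day was compared between the 2 lines of a genotype. This gave 0 called features (0%) in control lines and 0 (0%) in KO lines. By edgeR, 932 and 1064 features had an unadjusted p under 0.05. These comparisons rest on fewer libraries than the 161 calls, so 0 calls does not show that lines of a genotype changed alike. In the same fit with lines as 8 groups, 84 features were called for genotype by day. The count moved with single libraries. It was 259 without control line 1 replicate A at day 0, and 91 to 107 without any 1 day 14 library other than KO line 2 replicate A. With letter A at day 0 as a covariate 214 features were called, 154 of the 161 among them. Without the 4 day 0 libraries of letter A 467 were called, 158 higher and 309 lower, out of 13777 tested, and 134 of the 161 were among them, 89 of the 98 measured at both days and 45 of the 63 near zero at one day.

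These calls sat within a large common change. Between day 0 and day 14 the fit called 4699 features (42.8%) in controls and 5077 (46.3%) in KO lines. The median interaction was -0.07 over all features tested and -0.12 over those measured at both days. The direction split depends on the scaling: with RLE size factors 76 features were higher and 70 lower, and the median interaction moved to 0.11, a shift of over 0.1 relative to which all values below are to be read. By DESeq2 502 features were called, 308 higher and 194 lower, with a median of 0.12.

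**Figure D1:**
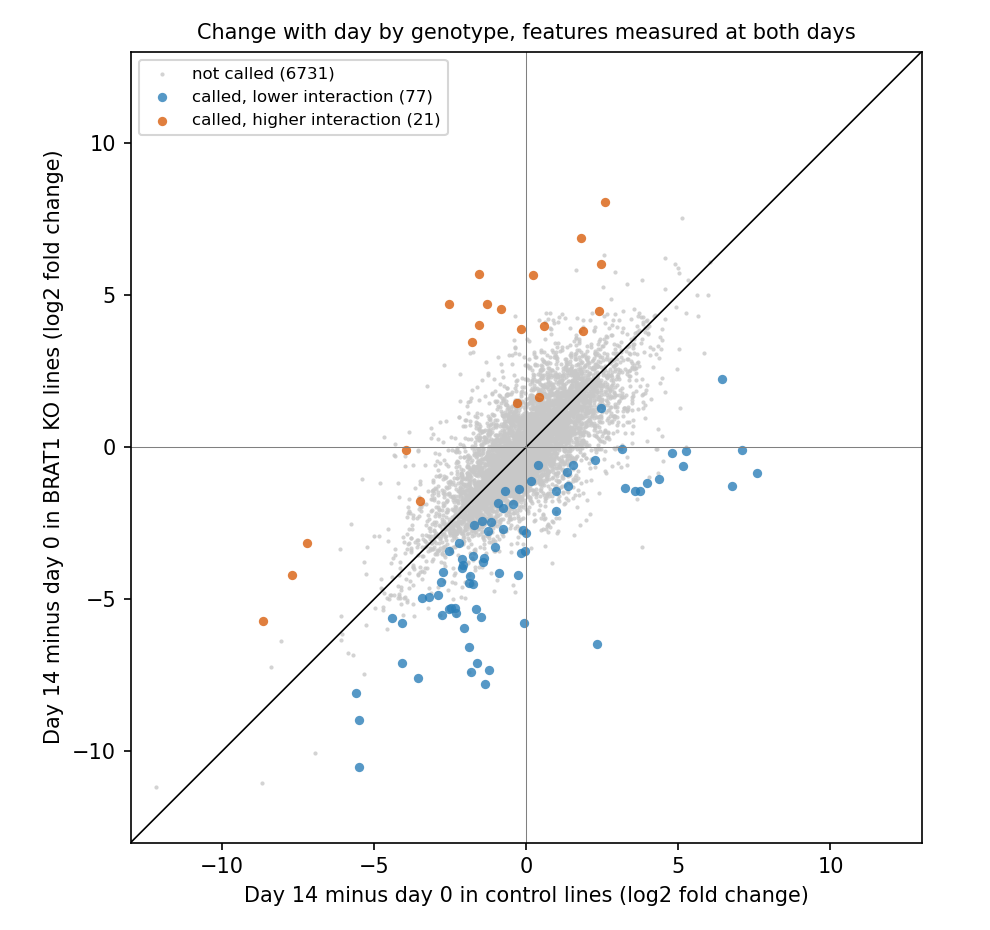
Log2 change from day 0 to day 14 in control lines (x axis) and in BRAT1 KO lines (y axis) for the 6829 features measured at both days. Grey points were not called, blue points are the 77 with a lower and orange points the 21 with a higher interaction, and the diagonal marks an equal change. Most blue points lie in the lower left, where both genotypes fell and KO lines fell further.

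The largest class among features measured at both days was a deeper fall in KO lines. Of the 77 lower features, 54 had a negative day effect in both genotypes with the larger one in KO lines, and in 40 of those both day effects passed the test. A further 21 had a positive day effect in controls and a negative one in KO lines, and 2 rose less in KO lines. The 21 higher features were 8 with a larger positive effect in KO lines, 8 with a positive effect in KO lines and a negative one in controls, and 5 with a smaller negative effect.

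Sets of features can be told apart by the libraries themselves. At day 14 the KO and control libraries did not overlap in 75 of the 98 features measured at both days and in 30 of the 63 near zero at one day. Over all 10971 features tested the groups did not overlap at day 14 in 10.9% and at day 0 in 0.118%. The calls were made from the same day 14 values, so the larger share among them is no separate support. At day 0 the groups did not overlap in 3 of the 161, namely IRS1, RDX and MAST1, named after their values were seen. All 65 lower features measured at both days that were apart at day 14 overlapped between genotypes at day 0. Over all features tested few were apart at day 0 (0.118%), so the overlap there is not particular to these 65. With the wider spread at day 0, overlap does not show that the genotypes were alike. In the other set, 23 features measured at both days and 33 near zero at one day, the libraries overlapped at day 14, and many of these features had counts in a few day 0 libraries of one genotype only. The day 14 difference was larger than the day 0 difference in 65 of the 77 lower and 10 of the 21 higher features measured at both days, and in 83 of all 161.

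Each day's 12 libraries were also fitted alone, a choice made after seeing the data. In day 0 libraries alone none of the 74 tested features among the 98 was called, and over all 4832 features tested there the count was 0, with 99 at an unadjusted p under 0.05 by edgeR. In day 14 libraries alone edgeR called 2474 of 11408 features tested. In the fit of all 24 libraries KO lines differed from controls in 241 features at day 14 (2.2%) and in 116 at day 0 (1.06%).

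**Figure D2:**
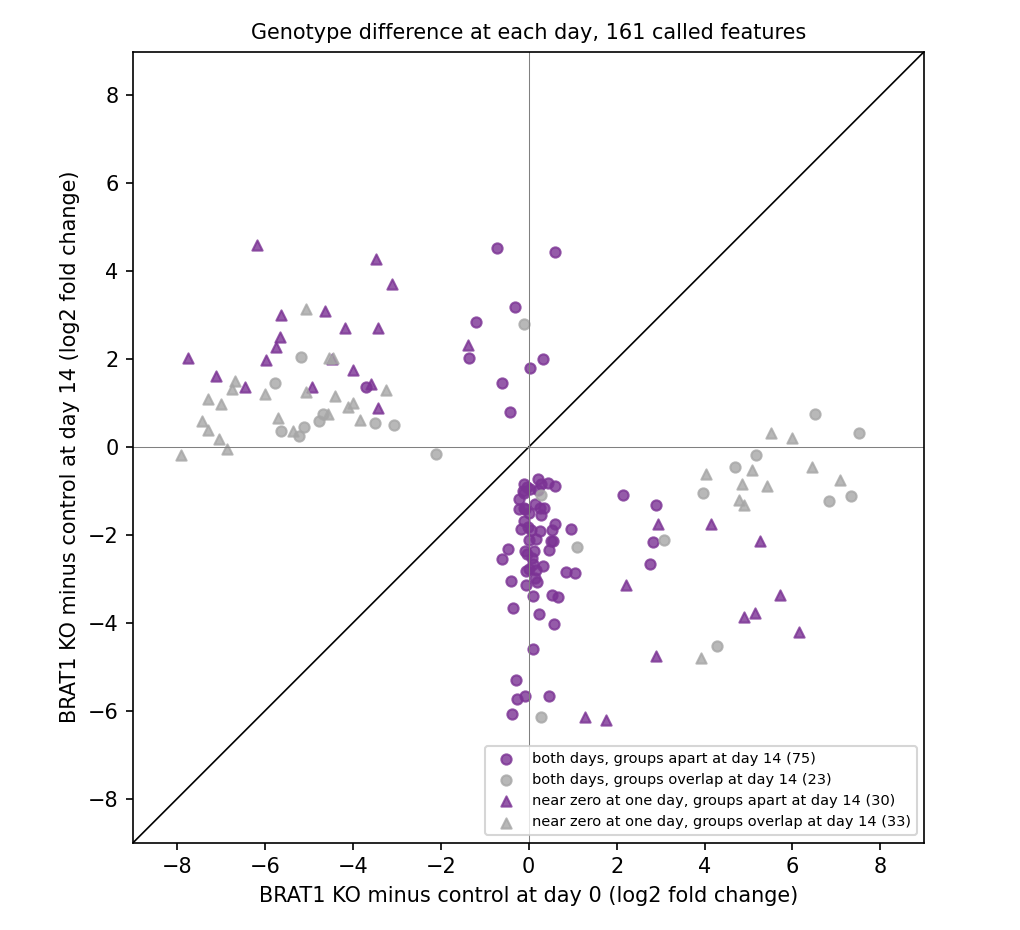
KO minus control at day 0 (x axis) and at day 14 (y axis), both log2 fold changes, for the 161 called features. Circles were measured at both days and triangles were near zero at one day, and purple marks the features whose KO and control libraries did not overlap at day 14. Most purple circles form a column near 0 on the x axis and below 0 on the y axis, and most grey points lie far from 0 on the x axis and near 0 on the y axis.

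Calls differed in how far they held. Of the 161 calls, 11 passed under all 42 alternatives, made of 18 other settings and 24 fits without 1 library. A setting that tested only features measured at both days is among them, so features near zero at one day could not pass all 42. All 11 were therefore measured at both days. They were PHLDA1-AS1, ENSG00000274021, DHX8, ENSG00000260798, KRT8, FOXD3-AS1, GJD2-DT, ENSG00000264324, ENSG00000287037, LYRM2 and SKIDA1, of which only LYRM2 and SKIDA1 were higher. With the line as a block, which pairs the days within a line, 73 features were called in place of 161, 72 of them shared. Of the 98 measured at both days 58 passed with the block, and of the 63 near zero at one day 14 passed. By voom 63 of the 98 and 6 of the 63 passed. Among features named in the text, the calls of EFR3B, VWDE, FGD6, ETV5-AS1, ENSG00000271776, SLC7A11-AS1, TCTE1, RDX and MAST1 were lost without the day 0 libraries of letter A (adjusted p = 0.0811, 0.1, 0.0606, 0.383, 1, 0.0693, 0.0554, 0.0939 and 0.079), and those of HAX1, PPP1CB and ETV5-AS1 with letter A as a covariate (0.0534, 0.0534 and 0.065).

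Features opposite PHLDA1 and DUSP6, genes of ERK feedback, fell in both genotypes and fell further in KO lines. PHLDA1-AS1 (chr12:76030494-76031378, GRCh38) is an antisense feature whose exons overlap 553 bp of PHLDA1, a gene induced by growth factor signalling. Its lowest, median and highest values in controls were 722, 923 and 1206 CPM at day 0 and 155, 186 and 224 CPM at day 14. The KO values were 592, 1005 and 1726 CPM at day 0 and 16.5, 23.6 and 31.3 CPM at day 14. The genotypes overlapped at day 0, and at day 14 the highest KO library was far below the lowest control library. The interaction was -3.12 (SE 0.29, adjusted p = 5.24e-08), and KO lines fell by 5.44 on the log2 scale where controls fell by 2.32. Across the promoter sequences matched for these 11 loci, the ETS core CCGGAA was searched on both strands (TTCCGG on the other), since ETS factors are nuclear effectors of ERK signalling. Promoters are RefSeq sequences of build GRCh38.p14, from 250 bases before to 50 bases after the start, printed 5′ to 3′ on the gene's strand with the match in capitals. The loci shown are PHLDA1 (chr12:76031727-76032026, minus strand), DUSP6 (chr12:89352452-89352751, minus strand) and KRT8 (chr12:52926420-52926719, minus strand), all loci of features that fell further in KO lines.
PHLDA1: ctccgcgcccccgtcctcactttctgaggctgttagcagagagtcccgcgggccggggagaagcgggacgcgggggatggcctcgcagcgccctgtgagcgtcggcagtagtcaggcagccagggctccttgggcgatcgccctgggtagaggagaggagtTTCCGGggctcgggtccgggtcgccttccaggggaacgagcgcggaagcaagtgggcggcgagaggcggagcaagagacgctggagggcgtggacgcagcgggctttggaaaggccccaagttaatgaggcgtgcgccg
DUSP6: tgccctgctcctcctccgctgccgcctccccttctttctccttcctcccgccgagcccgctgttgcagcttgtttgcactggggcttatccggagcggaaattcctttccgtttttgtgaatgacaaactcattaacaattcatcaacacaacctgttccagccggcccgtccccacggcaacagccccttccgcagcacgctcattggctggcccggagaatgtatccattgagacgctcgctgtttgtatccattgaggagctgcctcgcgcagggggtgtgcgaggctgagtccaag
KRT8: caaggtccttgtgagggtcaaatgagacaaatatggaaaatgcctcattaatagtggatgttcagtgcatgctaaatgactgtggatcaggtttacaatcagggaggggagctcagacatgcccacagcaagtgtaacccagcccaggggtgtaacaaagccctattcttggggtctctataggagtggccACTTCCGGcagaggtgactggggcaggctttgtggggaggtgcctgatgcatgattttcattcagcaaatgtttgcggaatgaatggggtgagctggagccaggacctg
PHLDA1 held 1 match, KRT8 held 1, which extends to CCGGAAGT, and DUSP6 held none in this window. Of 35116 promoters of 300 bases, 17.2% held CCGGAA and 4.14% held CCGGAAGT, which contains it. A promoter was matched for 8 of the 11 loci, reading each feature by its opposite gene where it has one, and 2 of the 8 held CCGGAA (PHLDA1 and DHX8). KRT8 was read there as KRT18, for which no promoter was matched.

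DUSP6 encodes a phosphatase that removes the activating phosphates of ERK and is itself induced by ERK signalling. It was read in both directions. The feature ENSG00000274021 (chr12:89351015-89353271) overlaps 1875 bp of DUSP6 exons on the other strand. Between days, controls went from 639, 996 and 1249 CPM to 126, 179 and 196 CPM (lowest, median and highest). KO lines went from 508, 871 and 1730.4 CPM to 13.1, 23 and 37.4 CPM. The day 0 groups covered the same range, and the day 14 groups did not overlap. Its interaction was -2.77, SE 0.37, adjusted p = 2.81e-05. Under its own name DUSP6 had 15.9 ± 3.9 CPM in day 14 controls and 1.83 ± 0.889 CPM in day 14 KO lines (SD, n = 6 each), after 29.8 and 33.7 CPM at day 0. That interaction was -3.25, SE 0.73, adjusted p = 0.0209. The own-name count is small beside the opposite one, and whether it is wrong-strand signal of the other was not tested.

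DHX8 (chr17:43483865-43610338), an RNA helicase gene of the spliceosome, also fell further in KO lines, and was chosen after its values were seen. Control libraries had 167, 599.6 and 841 CPM at day 0 and 26.1, 46.8 and 58.1 CPM at day 14. KO libraries had 339, 687 and 999 CPM at day 0 and 2.31, 2.74 and 6.37 CPM at day 14. Genotypes overlapped at day 0 and were separate at day 14. The interaction was -4.04, SE 0.45, adjusted p = 1.31e-06. The annotated span of DHX8 on the plus strand covers the ERK-induced ETS factor gene ETV4 on the minus strand, with 68 bp of shared exon, which is under the 100 bp minimum for an opposite gene. ETV4 under its own name had 8.65 CPM in day 14 controls and 11.6 CPM in KO lines, and its interaction of -0.95 was not called (adjusted p = 0.781). ETV5-AS1, at the locus of the related factor ETV5, was near zero at day 0 and had 4.8 to 9.51 CPM in day 14 controls against a median of 0 CPM in KO lines, with a highest value of 1.38 CPM. Its interaction of -7.67 (adjusted p = 0.0325) stands beside 1 day 0 KO library at 43.6 CPM and a day 0 KO median of 0.3 CPM.

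The ERK feedback list held 16 genes. Of 10 tested under their own names 1 was called lower (DUSP6) and 0 higher, and of 3 opposite features 2 were called lower and 0 higher, where 0.902% of all features tested were called lower. The 3 opposite features had a median interaction of -2.77, and the 4 own-name members measured at both days a median of -1.51, beside -0.12 over all features measured at both days. The feature opposite FGFBP3, which encodes a carrier of FGF ligands, was not called (-0.95, adjusted p = 0.304). SPRY4 (-4.21, adjusted p = 0.139), a feedback inhibitor, did not pass.

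**Figure D3:**
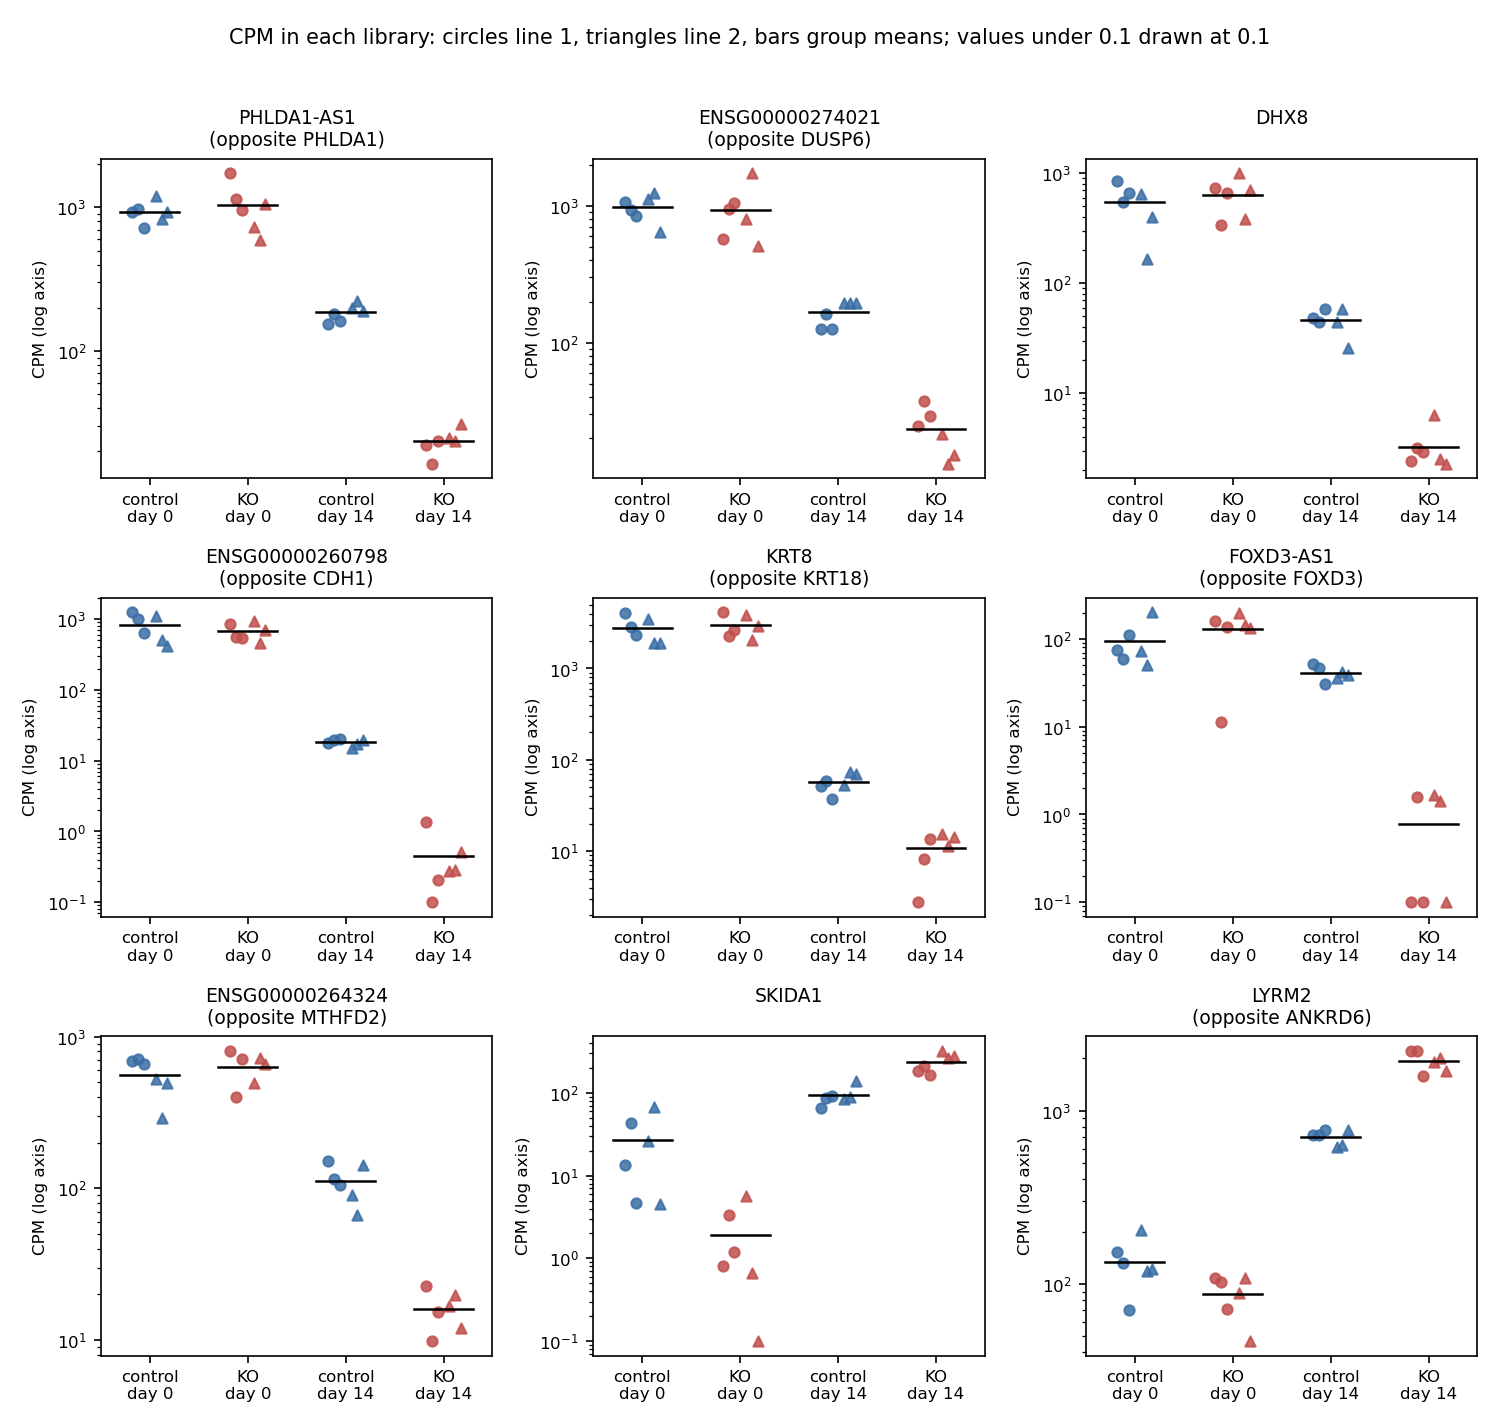
CPM of 9 called features in each of the 24 libraries, on a log axis. Circles are line 1, triangles line 2, blue is control, red is KO and bars are group means. In the 7 panels from PHLDA1-AS1 to the feature opposite MTHFD2 the groups overlap at day 0 and the KO libraries lie below all controls at day 14, and in SKIDA1 and LYRM2 they lie above.

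The 1 called feature of the pluripotency list lies opposite CDH1 and fell in both genotypes, further in KO lines. It is ENSG00000260798 (chr16:68814330-68823526), and CDH1 encodes E-cadherin, the adhesion molecule that holds stem cell colonies together. Its lowest, median and highest values in controls were 419, 831 and 1258 CPM at day 0 and 15.1, 18.7 and 20.3 CPM at day 14. The KO values were 465, 632 and 952 CPM at day 0 and 0, 0.281 and 1.38 CPM at day 14. At day 14 the control libraries lay within a narrow range and the KO libraries were at or near 0. The interaction was -5.02, SE 0.48, adjusted p = 5.24e-08. Under its own name CDH1 was near zero at day 14 and was not called (2.72, adjusted p = 0.384).

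KRT8 (chr12:52897187-52949954), which shares 525 bp of exon with KRT18 on the other strand, is a gene of the simple epithelial keratins, and KRT18 encodes its partner. Between days, controls went from 1898, 2569 and 4072 CPM to 37.7, 55.2 and 72.9 CPM (lowest, median and highest). KO lines went from 2073, 2782 and 4153 CPM to 2.76, 12.5 and 15.5 CPM. Day 0 levels overlapped between genotypes, and day 14 levels did not. The interaction was -2.48, SE 0.37, adjusted p = 0.000164. KRT18 under its own name had 32.9 CPM in day 0 controls and was not called (-1.94, adjusted p = 0.406). DSG2-AS1, opposite the desmosomal cadherin gene DSG2, went from 453 to 26.7 ± 3.23 CPM in controls and from 399.8 to 7.26 ± 4.28 CPM in KO lines (SD, n = 6 each). Its interaction of -1.69 (adjusted p = 0.0359) was lost with the line block (adjusted p = 0.0537) and kept by voom (0.0294). DSG2-AS1 was chosen after its values were seen.

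The pluripotency list as a whole did not follow CDH1. Of 13 members tested under their own names 0 were called, and of 4 opposite features 1 was called lower, the one opposite CDH1. TCF19, opposite POU5F1, had 140.2 and 145 CPM at day 0 in control and KO lines and 0.317 and 0.514 CPM at day 14. LRRC2, opposite TDGF1, stood at 644 and 627 CPM at day 0 and was at or near 0 at day 14 in both. Neither had an interaction that passed (adjusted p = 0.855 and 0.288). The list of non-neural ectoderm held 1 called of 4 own names and 1 of 2 opposite features, and both calls are the single feature KRT8, beside 1.44% over all features measured at both days.

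FOXD3-AS1 (chr1:63320884-63324441) overlaps 179 bp of FOXD3, a forkhead factor gene active in stem cells and again in neural crest. Control libraries had 51, 73.8 and 203 CPM at day 0 and 30.8, 40.2 and 51.8 CPM at day 14. KO libraries had 11.2, 141 and 196 CPM at day 0 and 0, 0.712 and 1.66 CPM at day 14. The day effect passed in KO lines (-7.34) and not in controls (-1.21, adjusted p = 0.0507), and at day 14 every KO library was under every control library. The interaction was -6.13, SE 0.81, adjusted p = 2.81e-05, with the lowest day 0 KO library apart from the other five. It was the most negative of the 11. Of 5 features opposite neural crest genes 1 was called, and of 10 own names 0 were, beside 1.47% of all features tested. SOX10, a neural crest factor near zero at day 0, had 59 CPM in day 14 controls and 8.15 CPM in KO lines, and its interaction was not called (adjusted p = 0.26). The summed level of the 15 neural crest genes under their own names was 130.6 to 179.4 CPM in day 14 controls and 88.8 to 134.2 CPM in day 14 KO lines, after 33.8 to 97.8 and 23.2 to 79.7 CPM at day 0, and 1 of the 15 was at 0 in day 14 controls and none in KO lines. Its part in the FOXD3-AS1 result was not tested. GJD2-DT, opposite the cardiac actin gene ACTC1, had 33, 38 and 59 CPM in day 14 controls and 4.83, 5.83 and 6.67 CPM in day 14 KO lines, with overlapping groups at day 0 (interaction -3.91, SE 0.59, adjusted p = 0.000203). ENSG00000287037, which has no match in the annotation used, went from 187 to 11 CPM in controls and from 233 to 1.65 CPM in KO lines (interaction -3.03, SE 0.48, adjusted p = 0.000463). GJD2-DT and ENSG00000287037 were chosen after their values were seen.

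The integrated stress response list had 10 opposite features tested, of which 4 were called lower and 0 higher, 2 of them over MTHFD2, beside 1.44% called over all features measured at both days. Among all features measured at both days that lie opposite a protein-coding gene, 49 of 2645 were called lower and 9 higher. That set is the nearer comparison for opposite features of this and the other lists that were measured at both days. The list holds enzymes of serine, folate and proline synthesis. ENSG00000264324 (chr2:74211604-74363377) overlaps 295 bp of MTHFD2, the mitochondrial folate enzyme. Its lowest, median and highest values in controls were 289.7, 593 and 713 CPM at day 0 and 66.5, 110.5 and 152 CPM at day 14. The KO values were 403, 689 and 809 CPM at day 0 and 9.84, 15.9 and 22.8 CPM at day 14. Day 0 groups overlapped and day 14 groups did not. The interaction was -2.98, SE 0.34, adjusted p = 2.02e-06. SLC4A5, another feature over MTHFD2, gave -2.82 (adjusted p = 0.0128), so both readings of that locus had a negative interaction, and they share a locus.

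The feature opposite PYCR1, which encodes the last enzyme of proline synthesis, had 177 ± 46 CPM in day 14 controls and 60.1 ± 12.8 CPM in KO lines (SD, n = 6 each). At day 0 the means were 601 and 728 CPM, and the interaction was -1.83, SE 0.33, adjusted p = 0.00218. The feature opposite SHMT2, the mitochondrial serine hydroxymethyltransferase gene, had 28.9 ± 6.83 and 6.76 ± 2.97 CPM at day 14 and an interaction of -2.25 (adjusted p = 0.0448), a call lost with the line block (adjusted p = 0.0677). This feature was chosen after its values were seen. The 10 opposite features of the list had a median interaction of -1.57. Of 16 own names 0 were called in either direction, and the 11 measured at both days had a median of -0.0039, beside -0.12 over all features measured at both days. Outside the list, ENSG00000275719, opposite the glutamine transporter gene SLC1A5, went from 1099.8 to 157 ± 35.9 CPM in controls and from 1311 to 60.5 ± 15.1 CPM in KO lines (SD, n = 6 each, interaction -1.63, SE 0.26, adjusted p = 0.000596). SLC19A1 is the gene of a folate carrier and overlaps COL18A1 on the other strand. It had 399 to 755 CPM in day 14 controls and 83.1 to 257 CPM in KO lines, against 842 to 1126 and 931 to 1184 CPM at day 0 (interaction -1.93, SE 0.32, adjusted p = 0.000761). SLC7A11-AS1 lies at the cystine transporter locus SLC7A11 and had an interaction of -1.72 (adjusted p = 0.0413), lost with the line block (0.0644) and by voom (0.155). The last 3 were chosen after their values were seen.

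Immediate early genes, which respond to signals without new protein synthesis, were represented by opposite-strand features. NR4A1AS (chr12:52058459-52059503) overlaps NR4A1, an orphan nuclear receptor gene. Between days, controls went from 35.4, 57.8 and 113 CPM to 132, 167 and 204 CPM (lowest, median and highest). KO lines went from 66.5, 75.2 and 102 CPM to 25.3, 48.2 and 57.8 CPM. It rose in controls and fell in KO lines (day effects of 1.33 and -0.84 on the log2 scale). The interaction was -2.17, SE 0.39, adjusted p = 0.00204. ENSG00000267598, opposite the early response gene IER2, had 688 ± 95.5 and 391 ± 48.8 CPM at day 14 in control and KO lines (SD, n = 6 each) after 1168 and 1576 CPM at day 0, with an interaction of -1.25 (adjusted p = 0.0121). Of 4 such features 2 were called lower and 0 higher (median -1.08), beside 1.44% over all features measured at both days, and of 7 own names 0 were called.

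Glycolysis and hypoxia genes gave 2 called of 3 opposite features, both lower, and 0 called of 17 own names, beside 1.44% over all features measured at both days. ENSG00000265168, opposite the aldolase gene ALDOC, had 16.8, 27.5 and 31.9 CPM in day 14 controls and 0.317, 3.89 and 8.87 CPM in day 14 KO lines, with day 0 means of 94.6 and 99.8 CPM. Its interaction was -2.61, SE 0.63, adjusted p = 0.0297. UFSP2, opposite the hypoxia-induced gene ANKRD37, had 85.6 and 23 CPM at day 14, and its interaction (-2.42, adjusted p = 0.0366) was lost with the line block (0.0677) and by voom (0.157). ENO1, the enolase gene, had 311 ± 77.1 and 94.6 ± 47.7 CPM at day 14 and did not pass (-1.60, adjusted p = 0.0509), although it did with the line block (0.0325). ENSG00000269968, opposite GAPDH and chosen after its values were seen, had 10558 to 15051 CPM in day 14 controls and 6158 to 7728 CPM in KO lines. Its interaction of -0.74 (adjusted p = 0.0461) was small and was lost with the line block (0.0677) and by voom (0.12).

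Markers of other cell types were read the same way. Among features opposite mesenchyme genes 2 of 3 were called lower, beside 1.44% over all features measured at both days, and 1 of the 2 was lost with the line block and by voom. THY1-AS1, opposite the surface glycoprotein gene THY1, went from 2324 to 108 ± 12.9 CPM in controls and from 2687 to 55 ± 7.93 CPM in KO lines (SD, n = 6 each, interaction -1.18, SE 0.23, adjusted p = 0.00588). ACTA2-AS1, opposite smooth muscle actin, rose in controls to 131 ± 18.1 CPM and stood at 29.8 ± 6.9 CPM in day 14 KO lines, but its call (-2.69, adjusted p = 0.0469) was lost with the line block (0.0736) and by voom (0.0632). FAS, the other feature opposite ACTA2, was not called. THY1-AS1 was highest in the day 0 stem cells of both genotypes, so it is not particular to mesenchyme in these data. The 3 mesenchyme genes tested under their own names, COL1A2, THY1 and PDGFRB, were not called. The 16 mesenchyme genes summed to 23.3 to 60.7 CPM in day 14 controls and 12.4 to 32.6 CPM in KO lines, and to 8.53 to 41.1 and 10.6 to 32.4 CPM at day 0. Of the defining markers, COL1A1 had a mean of 2.31 CPM in day 14 controls and 0.493 CPM in day 14 KO lines. ACTA2 had 3.28 and 1.92 CPM, and THY1 had 4.97 and 4.51 CPM. COL1A2 went the other way, higher in KO lines by 1.36 on the log2 scale in day 14 libraries alone (adjusted p = 0.107 by edgeR). The part of such cells in these results was not tested.

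Neuronal and regional genes were mostly near zero at day 0, and few passed. The 32 neuronal genes under their own names summed to 275.9 to 383.9 CPM in day 14 controls and 346.8 to 472.6 CPM in KO lines. Of 20 tested neuronal genes under their own names 0 were called, and of 10 opposite features 2 were called lower, beside 1.47% of all features tested. ENSG00000279694, opposite the retinoic acid binding protein gene CRABP1, rose from 1166 to 6446 ± 1868 CPM in controls and from 1001 to 2436 ± 145 CPM in KO lines (SD, n = 6 each). The smaller rise gave an interaction of -1.18, SE 0.25, adjusted p = 0.0116, which did not pass by voom (0.593). ENSG00000271776, opposite the sensory neuron factor POU4F1, was near zero at day 0 and had 336, 368 and 439 CPM in day 14 controls and 23.8, 30.7 and 76 CPM in KO lines (interaction -5.35, adjusted p = 0.0176, by voom 0.235). INPP5A, opposite the ventral factor gene NKX6-2, had 295 and 87.8 CPM at day 14 (interaction -4.70, adjusted p = 0.0297, by voom 0.507).

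PAX8-AS1, opposite the hindbrain and spinal cord factor PAX8, was the lowest interaction of a named feature near zero at day 0. Control libraries had 0, 0 and 0.705 CPM at day 0 and 312, 390.3 and 449 CPM at day 14. KO libraries had 0, 0 and 42.2 CPM at day 0 and 1.59, 20.1 and 39.6 CPM at day 14. Day 14 groups were far apart, and at day 0 the KO libraries were spread widely around a median of 0. The interaction was -10.35 (adjusted p = 0.0047, line block 0.00697, voom 0.072), and its size depends on the near absence of counts in day 0 controls. Of the 11 ventral, 23 progenitor and 8 dorsal genes tested under their own names 0 were called. NES, an intermediate filament gene of progenitors, had 92.3 ± 32.8 CPM in day 14 controls and 228 ± 40.9 CPM in day 14 KO lines and did not pass (2.02, adjusted p = 0.063).

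**Figure D4:**
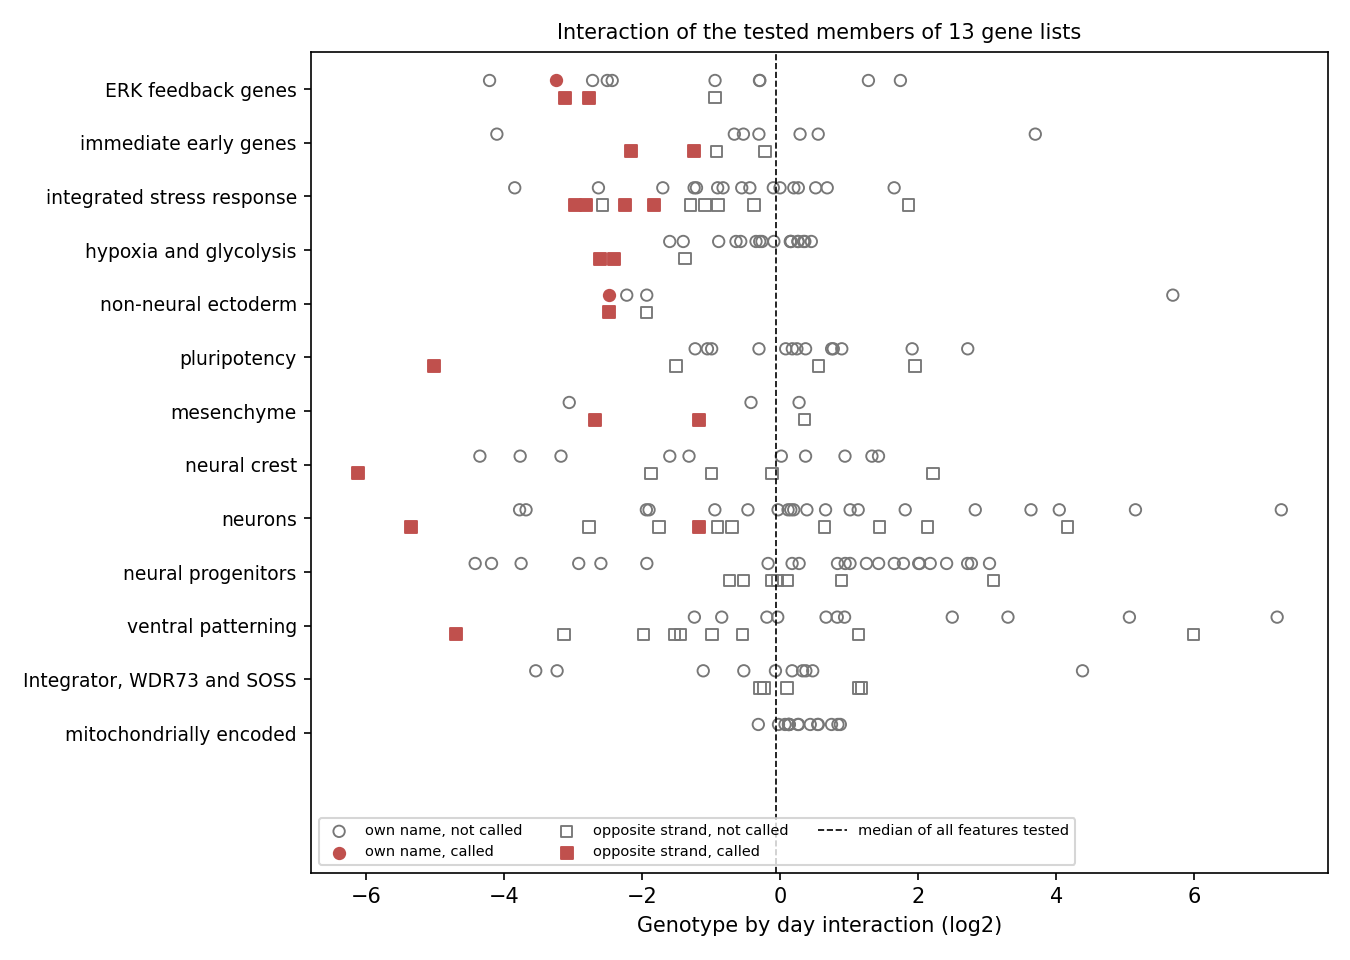
Genotype by day interaction (log2, x axis) of the tested members of 13 gene lists. Circles are members under their own names, squares are features on the opposite strand of a member, filled red symbols were called, and the dashed line is the median of all features tested (-0.07). All filled symbols lie below 0.

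Fewer features measured at both days had a higher interaction, and 10 of the 21 were apart at day 14. LYRM2 (chr6:89568144-89638753), a gene of a mitochondrial LYR-motif protein, shares 2362 bp of exon with ANKRD6, which encodes a regulator of Wnt signalling, on the other strand. Its lowest, median and highest values in controls were 70.2, 127 and 203 CPM at day 0 and 615, 721 and 775 CPM at day 14. The KO values were 46.6, 94.9 and 108 CPM at day 0 and 1588, 1959 and 2216 CPM at day 14. Both genotypes rose, and all KO libraries ended above all controls. The interaction was 2.06, SE 0.29, adjusted p = 6.71e-05, and LYRM2 was chosen after its values were seen. SKIDA1 (chr10:21513478-21526368) has no gene opposite. Its control libraries ran over 4.53 to 67.3 CPM at day 0 and 66.3 to 138 CPM at day 14. Its KO libraries ran over 0 to 5.63 CPM at day 0 and 164 to 323 CPM at day 14. So KO lines tended lower at day 0, with overlap, and were higher at day 14 without overlap (interaction 5.06, SE 0.75, adjusted p = 0.000164). In day 14 libraries alone KO lines were higher by 1.36 on the log2 scale, so most of the interaction rests on day 0. There KO libraries held 0 to 9 counts and control libraries 6 to 95, too few for a test in day 0 libraries alone.

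ENSG00000271434, opposite the homeobox gene NKX1-2, fell in controls and stood at like levels at both days in KO lines. Controls went from 38.2 ± 15.2 to 2.55 ± 2.52 CPM, and KO lines from 58.2 ± 21.9 to 54.2 ± 21 CPM (SD, n = 6 each, interaction 3.83, SE 0.72, adjusted p = 0.00382). ENSG00000228204, opposite the actin nucleator gene COBL, fell in both genotypes but to 0 to 1.17 CPM in controls and 2.28 to 6.93 CPM in KO lines (interaction 4.04, SE 0.84, adjusted p = 0.0111). TCTE1, opposite TMEM151B, had 87.6 to 117 CPM in day 14 controls and 262 to 444 CPM in KO lines after like levels at day 0 (interaction 1.77, SE 0.40, adjusted p = 0.0215). FEZF1-AS1, opposite the forebrain factor gene FEZF1, had 3.31, 6.97 and 138 CPM in day 0 controls and 10.6, 14.3 and 17.4 CPM at day 14. In KO lines the values were 0, 15.5 and 96.3 and 266, 326 and 404 CPM. The wide day 0 spread left the interaction at 5.25, SE 1.28, adjusted p = 0.0429, lost with the line block (0.0726) and kept by voom (0.0168). Of these, all but FEZF1-AS1 were chosen after their values were seen.

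Among called features near zero at day 0 that have a symbol, a highest group mean of at least 5 CPM and the same sign in all 4 line pairings, the most positive interactions were in CAPN6, a calpain family gene, and POU3F4, a POU factor of the developing brain. CAPN6 had 0, 3.03 and 3.57 CPM in day 14 controls and 45.4, 54.4 and 103 CPM in day 14 KO lines, with no overlap. At day 0 its highest control library had 65.9 CPM against a median of 0.997, and its highest KO library 0.662 CPM. The interaction was 10.77, SE 1.72, adjusted p = 0.000463 (line block 0.00435, voom 0.0288). POU3F4 had 2.94 to 12.1 CPM in day 14 controls and 12.2 to 30.7 CPM in KO lines, and no count in any day 0 KO library. With a group at 0, its fitted interaction depends on the prior count and its size is not given here (adjusted p = 0.0047, voom 0.0832). In 33 of the 161 called features at least 1 group was at 0 in all 6 libraries, in 22 of them the KO lines at day 0 and in 10 the controls at day 0. LINC01289, JPH2, ZSCAN25 and ERV3-1 were the other 4 most positive near-zero calls within those limits, all with day 0 KO lines at 0, and none of the 4 passed with the line block or by voom.

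Within the same limits, the most negative near-zero calls after PAX8-AS1 were LINC01257, POPDC3, ETV5-AS1, FGD2 and APH1A. LINC01257, a long noncoding RNA gene, had 7.42 to 19.5 CPM in day 14 controls and 0 to 0.854 CPM in KO lines (adjusted p = 0.0222, line block 0.0686, voom 0.00818). APH1A, a gamma-secretase subunit gene that overlaps C1orf54, overlapped between genotypes at both days, with 0.118 CPM in day 0 controls, 7.18 CPM in day 0 KO lines, and 3.71 and 1.99 CPM at day 14. POPDC3 and FGD2 had no count in any day 0 control library.

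Several of the largest fitted interactions among features measured at both days belong to the set that overlapped at both days. EFR3B, a gene of a membrane scaffold protein, had 0, 4.19 and 31 CPM in day 0 controls and 0, 0 and 0.662 CPM in day 0 KO lines. At day 14 it had 0.534, 1.58 and 7 and 3.13, 7.83 and 14.8 CPM. Its interaction of 7.23 (SE 1.66, adjusted p = 0.0215) goes with a few day 0 control libraries that had counts, and it was lost with the line block (0.0537) and by voom (0.193). VWDE (7.25), ADCK2 (5.98), NYX (5.57), A2MP1 (5.43) and HAX1 (4.04) had the same form, with adjusted p-values of 0.0287, 0.0328, 0.0461, 0.0311 and 0.0487. None of these 5 passed with the line block or by voom. SREBF1, a regulator of lipid synthesis that overlaps RAI1, had 43.2 to 80.4 and 63.8 to 81.5 CPM at day 14, which overlap, and 0, 8.1 and 26.2 against 0, 0 and 0.808 CPM at day 0. Its interaction was 5.48, SE 1.05, adjusted p = 0.0047, kept with the line block (0.00877) and lost by voom (0.163). CHPF2, a chondroitin synthesis gene, had the same form (3.57, adjusted p = 0.0168, line block 0.0224, voom 0.156).

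In the opposite direction, CALM2P2, a calmodulin pseudogene, had no count in any day 0 control library, 0, 8.91 and 15.3 CPM in day 0 KO lines, and 6.32, 8.84 and 13.2 against 2.07, 2.82 and 11.1 CPM at day 14. As a processed pseudogene it can share reads with CALM2, so its value is uncertain. MNT (-5.76, adjusted p = 0.0374), FGD6 (-5.37, 0.0443), LILRB3 (-5.14, 0.0498) and PPP1CB (-5.01, 0.0356) also overlapped at both days, and none of these 4 passed with the line block. PPP1CB alone of the 4 passed by voom (0.0362). CERKL, MYLK-AS1 and CDC42EP1 were of the other kind, with day 14 groups apart, although MYLK-AS1 and CDC42EP1 did not pass by voom (0.0538 for each). CERKL, a ceramide kinase-like gene, had 97.7, 127 and 166 CPM in day 14 controls and 1.72, 7.85 and 13.3 CPM in KO lines, against 13.5 and 20.1 CPM at day 0 (interaction -4.59, SE 0.88, adjusted p = 0.0047). SLCO4A1-AS1, opposite a transporter gene, had 2.09 to 7.2 CPM in day 14 controls and at most 0.345 CPM in day 14 KO lines (interaction -5.58, SE 1.27, adjusted p = 0.0215).

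What the called features share beyond the test was counted. Of the 77 lower features measured at both days, 49 (63.6%) lie opposite a protein-coding gene, against 38.7% of all 6829 features measured at both days, 42.9% of the 21 higher ones and 23.8% of the 63 near zero at one day. The median of the highest group mean was 149.8 CPM in the 77 lower features and 34.9 CPM over all features measured at both days. The part of depth in these shares was not tested.

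Lists tied to the known partners of BRAT1 held no call. Integrator subunits with WDR73 and the SOSS complex had 0 called of 10 own names and 0 of 5 opposite features, with medians of 0.17 and 0.10 among members measured at both days. INTS11, the catalytic subunit gene, had 129 and 249 CPM at day 0 and 90.6 and 121 CPM at day 14 in control and KO lines, and its interaction was -0.53 (adjusted p = 0.484). Cleavage and polyadenylation factors had 0 called of 14 and of 5, DNA repair genes 0 of 18 and of 8, p53 targets 0 of 11 and of 4, and cell cycle genes 0 of 20 and of 6. The 15 mitochondrially encoded genes had 0 called and a median of 0.26, while mitochondrial genes took 9.7 to 11.3% of counts in day 14 controls and 11.6 to 15.1% in KO lines, and of 29 ribosomal protein genes 0 were called, with a median of -0.04. No small nuclear RNA, replication-dependent histone or endothelial gene had enough counts to be tested.

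The wrong-strand percent, which differed between genotypes at day 14, was entered as a covariate. The count of calls was then 53, 47 of them among the 161, and 36 of the 98 measured at both days passed. All 11 features that passed under every alternative are among them by definition, since this fit is part of those alternatives. Their passing here is therefore no separate support. The wrong-strand percent ran from 0.792 to 1.3% at day 0 and from 2.14 to 4.67% at day 14, so it also separates the days. In the same fit the day effect was called for 532 features in controls and 255 in KO lines, in place of 4699 and 5077. Losses of calls through strand and through this link with day cannot be told apart. The part of the wrong-strand percent itself in the other calls was not tested.

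**Figure D5:**
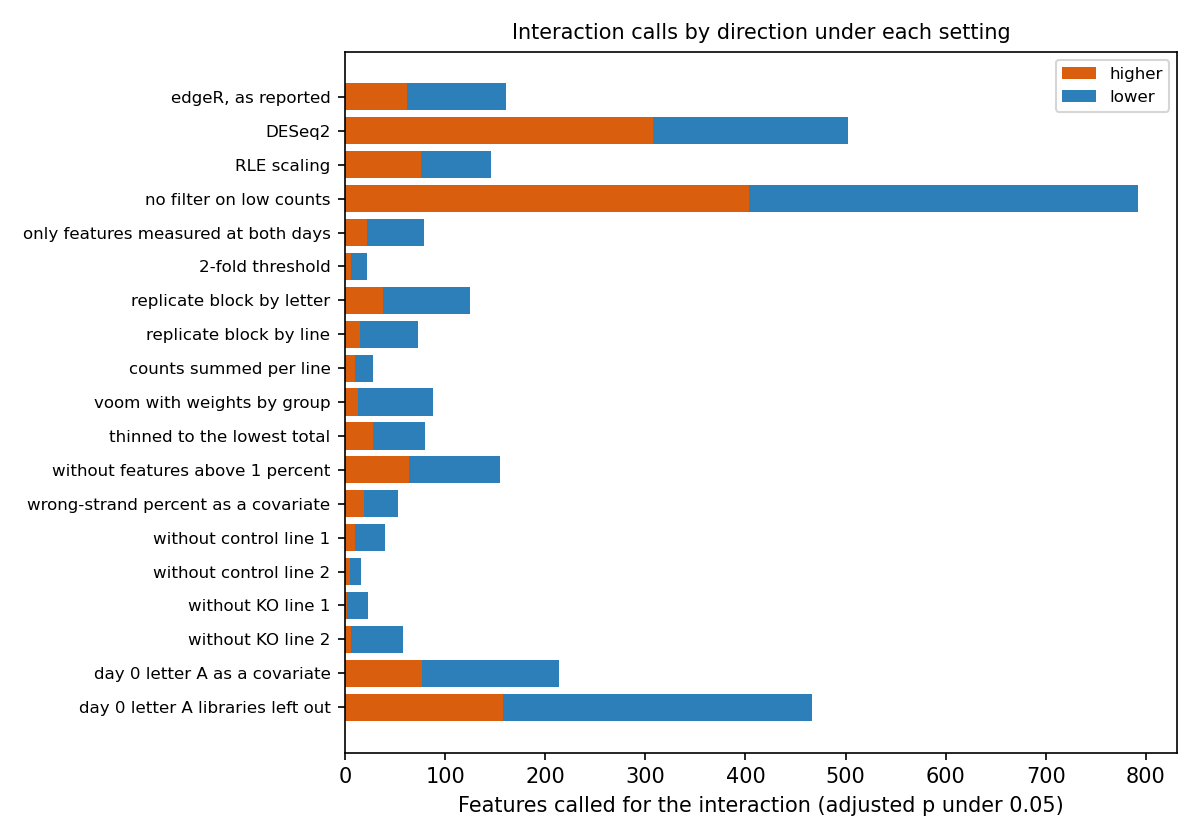
Number of features called for the interaction under each setting, with higher calls in orange and lower calls in blue. The reported fit has 161 calls, the fit with lines as a block 73, voom 88 and counts summed per line 28, while DESeq2 has 502 and the fit with no filter on low counts 792.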

How the data were processed

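RNA was taken with Trizol and poly(A) selected for Click-Seq libraries, per the labels' protocols. The authors deposited raw counts per gene for each library. The submitters' processing notes name bcl2fastq 2.20.0, STAR 2.7.9a, featureCounts of Subread 2.0.1, DESeq2 1.34.0, R 3.5.1 and build GRCh38. Which annotation release and strand setting were used is not given in the sources used here. Features were matched to GENCODE release 29 for position and opposite-strand genes (57005 of 61248, 90.1% of counts).

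Counts were fitted in R 4.3.3 with edgeR 4.0.16 (TMM scaling, quasi-likelihood test, 4 groups of 6 libraries, Benjamini-Hochberg adjustment), keeping features that passed edgeR's filterByExpr at its default settings by group, which held 98.0% of counts. Measured at both days is a separate rule of at least 10 counts in at least 3 libraries at each day. Scripts were tested on simulated data. Alternatives used limma 3.58.1 (voom) and DESeq2 1.42.0. The line block pairs the days within a line, since the labels give the same lines at both days. The line 2 minus line 1 difference at day 0 correlated with that at day 14 by 0.059 in controls and -0.054 in KO lines.

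Named features were called ones with a symbol, a highest group mean of at least 5 CPM and 1 sign in all 4 line pairings: the 10 most positive and 10 most negative measured at both days, the 6 and 6 most extreme near zero at one day, up to 3 per gene list, and the markers. Own-name values of a gene opposite a named feature, and of other list members, were chosen after values were seen. The features and lists were chosen with earlier results of these data known.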

Additional observations from a re-analysis of the deposited data

Results flagged for a closer look

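The change with day differed between KO and control lines, by the interaction test, in 161 features, 98 of them measured at both days and 63 near zero at one day. Among these, the 11 that passed under every alternative had log2 interactions of -4.04 for DHX8, -5.02 for ENSG00000260798, -2.98 for ENSG00000264324, -2.77 for ENSG00000274021, -3.03 for ENSG00000287037, -6.13 for FOXD3-AS1, -3.91 for GJD2-DT, -2.48 for KRT8, 2.06 for LYRM2, -3.12 for PHLDA1-AS1 and 5.06 for SKIDA1.

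In 6 of 64 groups of values looked at, 1 library lay far from the other five, and chance gives about 1 in 20. BRAT1 had a highest value of 4.23 CPM in day 0 controls. DHX8 had a highest value of 6.37 CPM and ENSG00000260798 one of 1.38 CPM in day 14 KO lines. FOXD3-AS1 had a lowest value of 11.2 CPM in day 0 KO lines. SKIDA1 had a highest value of 138 CPM in day 14 controls. The wrong-strand percent had a lowest value of 0.792 in day 0 controls.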

How the results depend on the processing

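Counts of interaction calls are given as all features, features measured at both days and features near zero at one day (161, 98 and 63 as reported). They were 502, 259 and 243 by DESeq2, 792, 169 and 623 with no filter on low counts, 22, 17 and 5 against a 2-fold threshold, 28, 26 and 2 with counts summed per line, and 80, 61 and 19 with libraries thinned to the lowest total. With a covariate for wrong-strand percent they were 53, 40 and 13. By voom 88 were called in all and 9 near zero, and with only features measured at both days 79. Without control line 1 they were 40, 32 and 8, without control line 2 16, 14 and 2, without KO line 1 23, 18 and 5, and without KO line 2 58, 46 and 12. Without the 4 day 0 libraries of letter A, a choice made after seeing the data, they were 467, 272 and 195. The split of calls (62 higher, 99 lower) turned to 308 and 194 by DESeq2 and to 76 and 70 with RLE scaling, and the median interaction (-0.07) to 0.12 and 0.11. The interaction of no feature called as reported and named here changed sign under an alternative. The cause of these changes was not tested.

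With the replicate block by line, which pairs the days, the counts were 73, 59 and 14, and 9 features differed between genotypes at day 0. With the replicate block by letter 32 were called near zero and 11 at day 0. Same-letter libraries had a median correlation of 0.024 (-0.32 to 0.35), and 16 of 24 correlated best with their own letter, a hint from the data and not from the design.

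KO against control at day 14 (241) gave 520 by DESeq2, 151 with only features measured at both days, 56 against 2-fold, 98 summed per line, 2560 by voom, 73 with the wrong-strand covariate, 105 and 100 without control line 1 and 2, 83 and 160 without KO line 1 and 2, and 467 without the day 0 letter A libraries, and 2474 in day 14 libraries alone. At day 0 (116) it gave 640 by DESeq2, 1266 with no filter, 10 with only features measured at both days, 4 against 2-fold, 2 summed per line, 41 thinned, 26 with the covariate, 12 without control line 2, 19 and 16 without KO line 1 and 2, and 475 without the letter A libraries. By voom it was 0, and in day 0 libraries alone 0 by edgeR, with 99 at an unadjusted p under 0.05. The fits of 1 day alone were chosen after seeing the data. The day effect in controls (4699) gave 2317 with only features measured at both days, 3069 against 2-fold, 532 with the covariate and 2926 without control line 2. In KO lines (5077) it gave 8739 with no filter, 2594 with only features measured at both days and 255 with the covariate.

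Leaving out 1 library gave 91 to 259 interaction calls, 57 to 131 measured at both days and 32 to 128 near zero. It gave 140 to 314 at day 14, 12 to 274 at day 0, and 4558 to 5240 and 4874 to 5680 for the day effect in control and KO lines. At day 0 the spread between libraries limits what can be detected.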
